A study of Mus musculus with 170 samples.

Results

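Muscle fibroblasts sorted from old mice were compared with those sorted from young mice. The comparison took the 3 old and 3 young libraries labelled muscle fibroblasts, 6 of 170 libraries in the series. Young animals were 2 months old and old animals 22 to 24 months, all on a C57/Bl6 background, and no treatment or transgene is named. Each library pooled 5 animals, so each age holds cells of 15, and the cells were purified by flow cytometry with a gate that the labels do not describe. The age difference was also set against that of satellite stem cells from muscle (3 young, 3 old) and of fibroblasts from lymph nodes (3 and 3) and thymus (4 and 4), at the same ages, on the same background and also 5 animals to a library.

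Fibroblasts of skeletal muscle lie between the fibres and make the collagen scaffold that carries force and anchors the basement membrane. A large share of them are mesenchymal progenitors marked by Pdgfra, the receptor for platelet-derived growth factors, which can also become fat cells. They send factors to satellite cells, the muscle stem cells, and to the fibres themselves, among them the follistatin Fst, which blocks myostatin and activins, and Gdf10, a bone morphogenetic protein also called BMP3b that supports muscle maintenance.

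The libraries held 1816124 to 5037385 counts, and 12046 genes were tested. Levels are CPM, a library's counts scaled to a common total, with TMM factors, and values in a sentence are given in the order of replicates 1, 2 and 3. The label was met by its markers: Pdgfra stood at 539, 624 and 475 CPM in young and 542, 232 and 468 in old libraries, and Dcn, the collagen-binding proteoglycan decorin, at 11082, 18086 and 12904 and 17517, 20166 and 17311. The ages overlapped for both genes. All 15 muscle fibroblast markers, which include collagens, were counted and summed to 71661 to 93526 CPM in young and 47664 to 65330 in old libraries. Young replicate 1 held 490 counts of 4 Y-linked genes against 3 to 16 in the other 5, with Xist counted in all 6. The labels give no sex, and the part of sex in the age differences was not tested. Old replicate 2 stood apart, with a median Spearman correlation to the others of 0.881 against 0.918 to 0.929, and had the highest Malat1 share, 4.86% of counts against 2.12% to 3.37%. Libraries of an age are separate pools, so p-values measure the spread between pools, and fewer cells of a kind and less RNA per cell cannot be told apart in them.

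The question was which genes differ between old and young muscle fibroblasts. A single gene, Arhgef4, passed the threshold of adjusted p under 0.05 (edgeR's quasi-likelihood test, Benjamini-Hochberg adjustment over all genes tested), which is 0.0083% of those tested. It rose with age. Arhgef4 lies on chromosome 1 (chr1:34678188-34813309, plus strand, GRCm38, GENCODE M21). It stood at 2.03, 0.776 and 1.79 CPM in young libraries (5, 4 and 4 counts) and 24.8, 61.6 and 59.1 in old ones (46, 136 and 164 counts). Every old library was more than 10 times above every young one. The log2 fold change was 5.08 ± 0.52 (± SE here and for all log2 values, 3 against 3 libraries, adjusted p = 0.000158), a 33.9-fold difference. It lay between 4.64 and 5.40 with any 1 library left out and was past the threshold each time. Of 164 libraries of other groups 9 stood at or above the lowest old muscle fibroblast library. Only 2 of the 44 other groups had a median above that library, young and old keratinocytes at 35.2 and 34.2 CPM of the library total. The genes Gm37224 and Gm37845 overlap Arhgef4 on the same strand and Fam168b and Gm38336 on the other. The annotation has a second, short entry of this name at chr1:34801794-34801964.

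The RefSeq promoter table (GRCm38.p6) holds 2 start sites for Arhgef4, and both windows are shown because the counts come from RNA 3' ends and do not tell which start was used. Each runs from 250 bases before the start to 50 after it, 5′ to 3′ on the plus strand, with the E-box CACGTG in capitals. The upstream window lies at chr1:34677932-34678231 and the downstream one at chr1:34801491-34801790.
Arhgef4 upstream start: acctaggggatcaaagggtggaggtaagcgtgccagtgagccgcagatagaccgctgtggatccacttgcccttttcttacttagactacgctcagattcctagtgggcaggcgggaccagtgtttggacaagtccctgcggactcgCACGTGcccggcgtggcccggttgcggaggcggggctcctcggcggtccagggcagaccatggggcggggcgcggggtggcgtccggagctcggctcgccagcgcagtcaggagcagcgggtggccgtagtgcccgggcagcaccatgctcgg
Arhgef4 downstream start: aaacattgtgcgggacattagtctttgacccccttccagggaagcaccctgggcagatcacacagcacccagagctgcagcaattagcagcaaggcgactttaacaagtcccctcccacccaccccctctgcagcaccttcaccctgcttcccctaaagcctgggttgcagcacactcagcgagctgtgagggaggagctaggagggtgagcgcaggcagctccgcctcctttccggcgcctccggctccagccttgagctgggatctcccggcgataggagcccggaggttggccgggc
The first window holds 1 E-box. That motif is present in 7.15% of 32851 RefSeq promoters of the same length and in 9.79% of the 11188 of genes tested. Neither holds the interferon element GAAANNGAA, the AP-1 site TGANTCA or the kappa B core GGGANTTCC on either strand. Their shares are 8.56%, 7.81% and 1.68% of all promoters and 7%, 5% and 2.21% of those of genes tested. Motif hits here are letter matches only.

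Across all genes 927 (7.7%) had all 3 old libraries above all 3 young ones and 786 (6.52%) had all of them below, and these shares are the background for the counts without overlap that follow. A list's counts are to be read against them in proportion to its size. An unadjusted p under 0.05 was reached by 646 genes in the higher direction (5.36%) and 426 in the lower (3.54%). The median log2 fold change of all genes was 0.009. Genes other than Arhgef4 are described below by their levels, since none passed the adjusted threshold (DESeq2 called 18 higher and 36 lower). The gene lists were chosen with earlier results of these data known, so their counts and medians are descriptions and not independent support. Genes outside the lists, and members picked out by name, were chosen after their values were seen, apart from those named whatever their values.

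**Figure D1:**
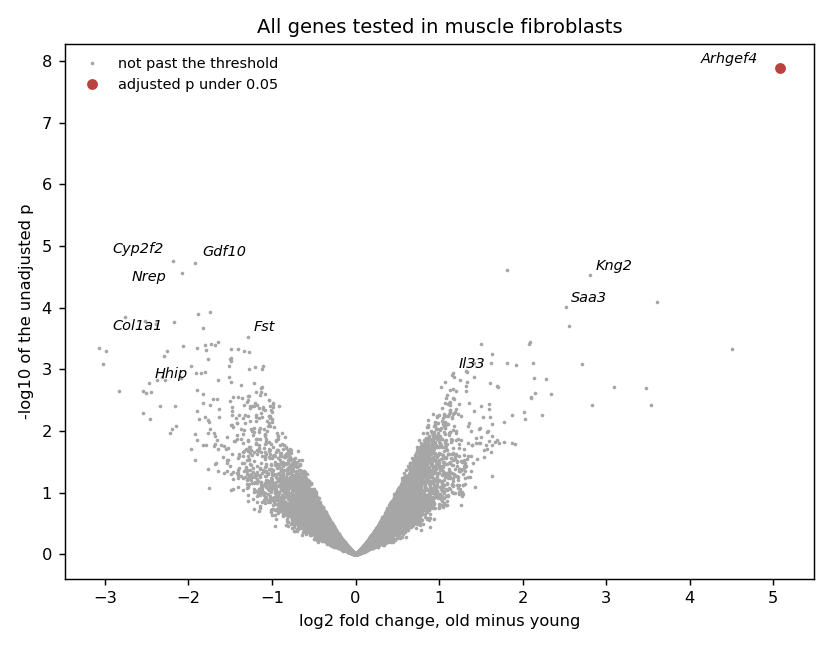
Each point is 1 of the 12046 genes tested, with the log2 fold change (old minus young) on the x axis and the unadjusted p as -log10 on the y axis. Arhgef4, at 5.08, is the single gene past the adjusted threshold and stands apart from the rest.

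Next to Arhgef4 in rank were Cyp2f2, Gdf10, Nrep, Kng2 and a clone model without a gene symbol, each with adjusted p = 0.0594. Cyp2f2 (chr7:27119909-27133660), a cytochrome P450 that oxidises small aromatic compounds, stood at 66.0, 39.8 and 34.5 CPM in young and 9.18, 12.7 and 9.0 in old libraries, a log2 fold change of -2.18 ± 0.38. Gdf10 (chr14:33923587-33937983) stood at 279, 136 and 142 in young and 57.8, 42.1 and 47.2 in old, a log2 fold change of -1.92 ± 0.33. In both genes every old library was below every young one, and young replicate 1 was the highest of all. Nrep, which codes for the small protein P311 and is tied to TGF-beta signalling, stood at 269, 122 and 90.2 against 33.5, 39.8 and 40.3 (log2 fold change -2.08 ± 0.37). Kng2 (chr16:22985854-23029482), a kininogen from which kinin peptides are cut, was low in young libraries at 1.22, 4.07 and 2.24 CPM and stood at 22.1, 18.6 and 16.6 in old ones (log2 fold change 2.80 ± 0.51). These 4 genes were called when the deviances were bias-adjusted (adjusted p = 0.0366 each), and without young replicate 1 their adjusted p was 0.345.

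**Figure D2:**
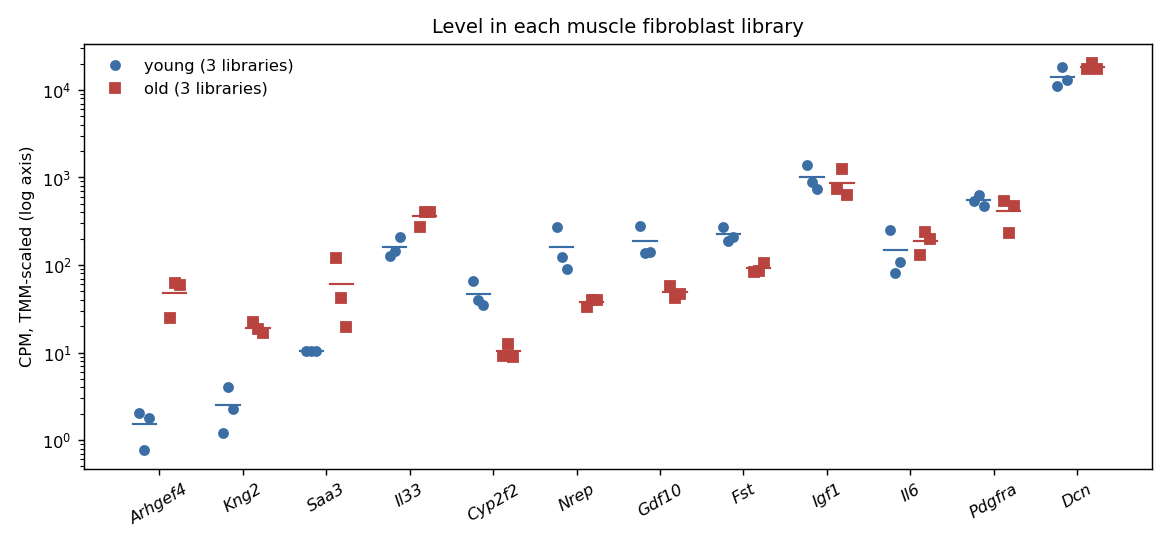
The level in each library is shown on a log axis in CPM for 12 genes, with young libraries as circles, old libraries as squares and bars at the group means. For Arhgef4, Kng2, Saa3 and Il33 the old libraries lie above the young, for Cyp2f2, Nrep, Gdf10 and Fst below, and for Igf1, Il6, Pdgfra and Dcn the groups overlap.

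Further genes without overlap, 20 CPM or more in the higher group and low p were on the higher side Saa3, Prune2, Tac1, Lgals1, Ackr4, Cystm1 and Cox14. Saa3, an acute-phase serum amyloid, was nearly equal in the young libraries at 10.5, 10.5 and 10.3 CPM and stood at 119.9, 42.1 and 19.4 in the old (adjusted p = 0.147). Tac1, the precursor of substance P, stood at 7.70, 5.43 and 5.83 against 13.0, 46.6 and 20.2. Lgals1, the secreted lectin galectin-1, stood at 284, 293 and 231 against 419.5, 1479.7 and 604, with old replicate 2 the highest of all, and its log2 fold change of 1.63 was 0.91 without it. Ackr4, a receptor that removes chemokines, stood at 9.32, 7.18 and 6.73 against 36.2, 34.4 and 11.9. The value of Cox14, an assembly factor of cytochrome oxidase, rested on old replicate 1 (525, 107 and 73.5 CPM in old libraries), and its log2 fold change of 2.12 was 0.75 without that library.

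On the lower side were Col4a3, Itga8, Prkg2, Col1a1 and Rgs6. Itga8, the alpha 8 integrin subunit that binds nephronectin, stood at 41.3, 45.8 and 31.4 CPM in young and 11.3, 5.88 and 14.8 in old libraries (log2 fold change -1.88 ± 0.39, adjusted p = 0.153). Its ligand Npnt, nephronectin, was low at 6.48, 3.88 and 12.1 in young and 0, 2.26 and 2.16 in old libraries, also without overlap. Prkg2, a cGMP-dependent kinase, stood at 36.5, 11.8 and 25.1 against 1.62, 6.34 and 4.32, and Rgs6, a regulator of G protein signalling, at 13.0, 16.7 and 32.7 against 2.16, 5.43 and 3.96.

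The fibrillar collagens form the bulk of the muscle matrix. Of 14 genes for fibrillar and associated collagens 0 passed the test, 12 had a negative log2 fold change, and the median was -1.19 against 0.009 over all genes. The old libraries lay below the young for 4, Col1a1, Col1a2, Col3a1 and Col6a6, and above for 2, Col8a1 and Col12a1, and an unadjusted p under 0.05 was reached by 10 in the lower direction and 1 in the higher. DESeq2 called 3 as lower, and edgeR 9 with all genes kept. Col1a1 (chr11:94936224-94953042), the main chain of type I collagen, stood at 21545, 5542 and 6295 CPM in young and 3057, 2324 and 2041 in old libraries (log2 fold change -2.17 ± 0.46, adjusted p = 0.157). Col1a2, the partner chain, stood at 9838, 3719 and 4479 against 1977, 934 and 2242. Col3a1 (chr1:45311538-45349706), for the type III collagen of fine fibres, stood at 11996, 2524 and 4973 against 1537, 897 and 2223 (log2 fold change -2.06 ± 0.48, adjusted p = 0.179). In each of the 3 genes young replicate 1, the library with Y-linked counts, was the highest of all. Without it the log2 fold changes were -1.28, -1.27 and -1.29, and the median of the list -0.64. Without young replicate 1 and old replicate 2 that median was -0.39, and Col1a1 stood at -1.23.

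The chains of type V collagen, which sets fibril width, had log2 fold changes of -1.32 (Col5a1), -1.16 (Col5a2) and -0.95 (Col5a3). The chains of type VI collagen, which links the matrix to the cell surface, had -1.28 (Col6a1), -1.19 (Col6a2), -1.19 (Col6a3) and -1.66 (Col6a6). Without young replicate 1 these were -0.65, -0.77 and -0.64 for type V and -0.86, -0.57, -0.60 and -0.90 for type VI. Col14a1 and Col16a1 had -0.29 and -0.61, and their sign turned without young replicate 1 (0.088 for Col14a1) or without it and old replicate 2 (0.14 for Col16a1). Col8a1, a short-chain collagen, had the opposite sign and stood at 149, 61.9 and 167 CPM in young and 279, 263 and 238 in old libraries (log2 fold change 1.05 ± 0.34, adjusted p = 0.363). Col12a1, which decorates type I fibrils, stood at 165, 111 and 183 against 328, 203 and 189.

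**Figure D3:**
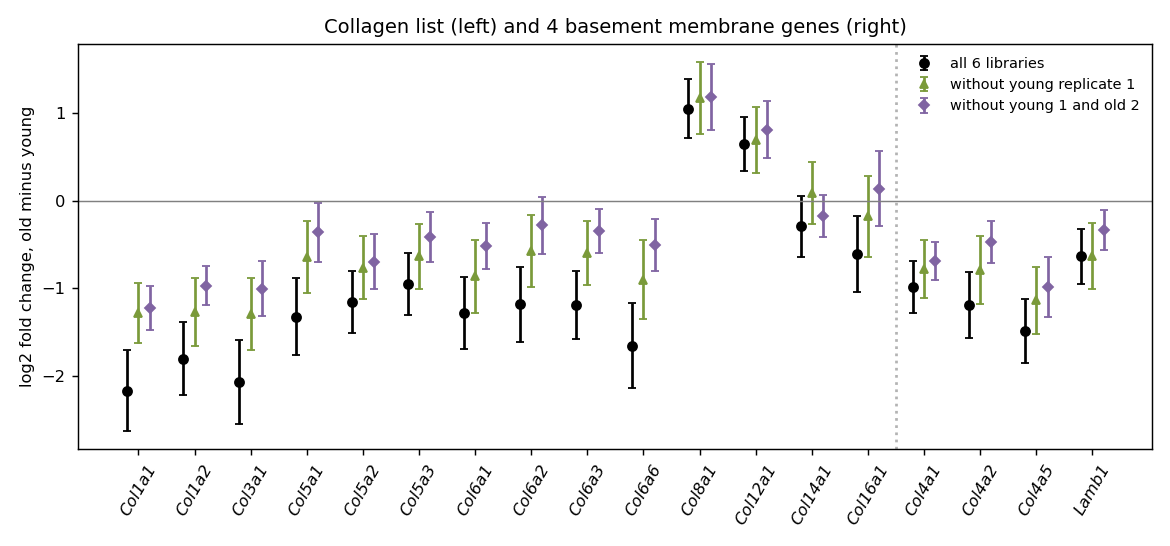
Log2 fold changes (old minus young) with SE are shown for the 14 collagen genes and 4 basement membrane genes, from all 6 libraries (circles), without young replicate 1 (triangles) and without young replicate 1 and old replicate 2 (diamonds). The 4 basement membrane genes are among the 5 of 15 measured with all old libraries below the young, and do not stand for the whole list. Col1a1 moves from -2.17 to -1.28 without young replicate 1, while Col8a1 and Col12a1 lie above 0 in all 3 fits.

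The promoter window of Col3a1 is given because type III collagen is one of the genes without overlap and holds none of the 4 motifs searched. It lies at chr1:45311288-45311587 on the plus strand and is all in lower case, as it has no match to mark.
Col3a1 start: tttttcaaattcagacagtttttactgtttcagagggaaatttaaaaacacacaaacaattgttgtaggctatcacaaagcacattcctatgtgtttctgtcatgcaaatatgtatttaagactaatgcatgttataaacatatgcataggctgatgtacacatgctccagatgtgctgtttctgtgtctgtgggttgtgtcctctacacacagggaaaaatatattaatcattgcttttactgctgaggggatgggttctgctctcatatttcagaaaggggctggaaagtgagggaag
Among the 11 promoters found for 10 of the 14 collagen genes, 1 held the AP-1 site and 0 the other motifs.

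Basement membranes wrap each muscle fibre and vessel. Of 15 measured basement membrane genes 14 had a negative log2 fold change, with a median of -0.64, and 5 had all old libraries below the young and 0 above, while 0 passed edgeR's test, 6 reached an unadjusted p under 0.05 and DESeq2 called 1, all lower. Col4a1, a chain of the common type IV collagen, stood at 1463, 939 and 1005 CPM in young libraries and 594, 509 and 619 in old ones, and its partner Col4a2 at 926, 392 and 535 against 328, 140.3 and 344. Lamb1, a laminin chain, stood at 340.2, 295 and 351 against 248, 118 and 268, and Col4a5 at 96.0, 58.8 and 42.2 against 19.4, 18.6 and 31.7. Col4a3 and Col4a4 code for partner chains of Col4a5 and were not in the list. Both were picked after their values were seen, Col4a3 by a rule that required no overlap, so they add nothing to the list's counts. Col4a3 stood at 73.7, 86.3 and 49.8 against 27.5, 12.7 and 22.7 and Col4a4 at 111, 64.6 and 77.6 against 35.1, 9.96 and 26.3. Endothelial cells also make type IV collagen, and their 9 markers all had negative log2 fold changes (median -0.85), with a summed level of 537 to 1055 CPM in young and 330 to 661 in old libraries. The part of that shift in the basement membrane values was not tested. The list's median was -0.21 without young replicate 1 and old replicate 2.

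Other matrix genes did not share one direction. Of 27 proteoglycans and matricellular proteins 4 lay above (Ogn, Aspn, Tnc and Thbs4) and 2 below (Fmod and Sparc), with 0 passing, 8 at an unadjusted p under 0.05 and 2 called by DESeq2. Aspn, the small proteoglycan asporin that restrains TGF-beta, stood at 578, 426 and 509 CPM against 778, 2069 and 960.5, and Thbs4, a thrombospondin of tendon and muscle matrix, at 286, 168 and 198 against 673, 311 and 564. The 7 tenocyte markers, Thbs4 among them, summed to 309.9 to 468 CPM in young and 405 to 818 in old libraries. Without Thbs4 they summed to 142 to 183 and 94.2 to 145. Of the 6 measured, 4 had a negative log2 fold change, with a median of -0.091, and Fmod and Chad lay below. The part of tenocyte RNA in the level of Thbs4 was not tested. Sparc, a collagen-binding protein, stood at 5612, 2122 and 2934 against 1152, 1823 and 1156. Of 23 collagen processing genes 1 lay below, Plod1, a lysyl hydroxylase (146, 76.4 and 90.2 against 41.0, 43.5 and 38.9), and 0 above. Among 20 matrix proteases and inhibitors, Timp1, an inhibitor of metalloproteinases, stood at 24.7, 13.4 and 13.5 in young and 40.5, 64.3 and 32.8 in old libraries, and Adamts12, a secreted protease, at 154, 49.5 and 77.2 against 29.7, 10.9 and 34.6. Mmp23 also lay above, and the gelatinase gene Mmp2 and Adamts15 below. Of 17 elastic fibre genes 2 lay above, Mfap4 and Ltbp2, and 0 below.

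Signals from fibroblasts to muscle were read from a list with 19 measured genes, of which 0 passed, 1 lay above and 2 below, with a median of 0.026. Fst (chr13:114452290-114458951) stood at 275, 188 and 209 CPM in young libraries and 84.2, 86.5 and 105 in old ones (log2 fold change -1.28 ± 0.29, adjusted p = 0.179). Gdf10 was the other gene below. Il33 (chr19:29925114-29960718), an alarmin that sustains regulatory T cells in muscle, stood at 128, 145 and 207 against 269, 400.1 and 408 (log2 fold change 1.17 ± 0.30, adjusted p = 0.231). The groups did not overlap for Fst or Il33, and without young replicate 1 the log2 fold changes were -1.13 and 1.01. DESeq2 called 3 genes of this list, 1 higher and 2 lower.

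The other factors followed by name overlapped between ages. Igf1, a growth factor for fibres, stood at 1374, 899 and 742 CPM in young and 731, 1257 and 633 in old libraries. Ccn4, also known as Wisp1 and a matricellular factor that supports satellite cells, stood at 27.5, 12.4 and 10.3 against 17.3, 12.7 and 10.4. Il6 stood at 252, 81.7 and 109 against 130.1, 239 and 199, and Smoc2, a matrix protein of a fibroblast subset, at 1514, 1904 and 1261 against 1571, 598 and 1747. The cytokine gene Lif was low, at 15.4, 3.30 and 6.73 against 7.02, 6.34 and 8.28, as was Hgf, a growth factor that activates satellite cells, at 3.65, 9.12 and 3.59 against 2.16, 10.4 and 10.8. The adjusted p of these 6 genes ran from 0.798 to 0.946. Spp1, osteopontin, reached 92.9 CPM in old replicate 1 and stood at 12.2 CPM or less in the other 5 libraries.

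In the TGF-beta pathway 0 of 32 genes passed, 5 lay above (Inhba, Tgfbr1, Skil, Pmepa1 and Acta2) and 2 below (Tgif1 and Nrep), with 6 at an unadjusted p under 0.05 and 1 called by DESeq2. Inhba, the subunit of activin A, stood at 51.8, 40.1 and 33.2 CPM in young and 76.1, 157 and 80.0 in old libraries (log2 fold change 1.32 ± 0.34). Skil, a feedback inhibitor of the pathway, stood at 949, 669 and 874 against 1074, 2417 and 986. Acta2, smooth muscle actin and a myofibroblast marker that mural cells share, was low at 8.10, 8.73 and 6.73 against 22.1, 15.8 and 19.4, and the sum of 8 mural markers lay at 92.4 to 155 CPM in young and 65.6 to 103 in old libraries.

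Of 27 Wnt pathway genes 6 lay below (Wnt5a, Fzd4, Sfrp2, Dkk2, Dkk3 and Rspo3) and 2 above (Sfrp4 and Nkd2), with 0 passing, 7 at an unadjusted p under 0.05 and 1 called by DESeq2. The ligand Wnt5a stood at 119, 114 and 102 CPM in young and 44.3, 53.9 and 56.5 in old libraries (log2 fold change -1.11 ± 0.28, adjusted p = 0.22). The secreted antagonist Dkk2 stood at 76.6, 52.0 and 49.8 against 22.1, 33.9 and 24.5, and Sfrp4, another secreted antagonist, at 299, 239 and 259.7 against 481, 527 and 384. In the BMP pathway 1 of 23 lay above and 2 below, among them the antagonist Chrdl1 (41.7, 25.8 and 32.7 against 16.2, 9.05 and 10.1). In the hedgehog pathway 1 of 12 lay below, the decoy receptor Hhip, at 17.0, 5.24 and 11.2 against 1.62, 3.62 and 0.72. Of 11 genes of the IGF axis 3 lay below, the binding protein Igfbp3 (104, 149 and 122 against 90.7, 47.5 and 37.8) and the proteases Pappa and Htra1, and 0 above. Of 25 PDGF and FGF pathway genes 2 lay above and 3 below.

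Markers of the parenchymal fibroblast subset lay on both sides, and those of the interstitial progenitor subset without overlap lay above only. Of 16 genes of the parenchymal subset 4 lay above (Cxcl14, Hsd11b1, Mme and Inmt) and 3 below (Gdf10, Lpl and Col4a1). Hsd11b1, which reactivates glucocorticoids, stood at 60.8, 66.3 and 48.4 CPM in young and 108, 146 and 116 in old libraries, and the chemokine gene Cxcl14 at 447, 581 and 351 against 779.7, 933 and 812. Of 16 genes of the interstitial progenitor subset 3 lay above and 0 below. Among 20 adipogenic genes Lpl, lipoprotein lipase, stood at 724, 461 and 552 against 272, 185 and 264 (log2 fold change -1.27 ± 0.30), the desaturase gene Scd1 at 175, 164 and 167 against 113, 97.3 and 115, and Car3, a carbonic anhydrase abundant in fat and muscle, at 10.9, 20.4 and 26.0 against 49.1, 54.3 and 49.3. The 6 adipocyte markers summed to 11.5 CPM or less in every library.

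Of the immune lists 0 members passed in each. Of 16 class I presentation genes 4 lay above and 1 below: B2m, the class I light chain, stood at 475, 735 and 661 CPM in young and 933, 1955 and 784 in old libraries, and Psmb10, an immunoproteasome subunit, at 23.5, 46.2 and 27.4 against 54.0, 100.5 and 60.9. Of 44 interferon-stimulated genes 5 lay above and 2 below, among them Ifi27l2a at 28.8, 19.8 and 45.3 against 47.0, 104 and 67.7 and Ifitm3 at 769.6, 887 and 705 against 1017, 2816 and 1101, with old replicate 2 the highest in each. Of 27 chemokine and cytokine genes 5 lay above and 1 below, including Ccl11, which attracts eosinophils, at 334, 424 and 371 against 465, 968 and 559.7. The medians of the class I, interferon and chemokine lists were 0.339, 0.084 and 0.364. Without old replicate 2 they were 0.201, 0.02 and 0.003, and without it and young replicate 1 0.114, 0.049 and 0.299. Complement (2 above, 1 below of 15) and NF-kB and acute-phase genes (2 above, 0 below of 17) had medians of 0.019 and 0.026. The 7 neutrophil markers summed to 3.10 to 13.4 CPM in young and 7.56 to 130.1 in old libraries, and B, T and plasma cell markers to 8.07 CPM or less, so markers of lymphocytes were near 0. The part of neutrophil RNA in these values was not tested.

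**Figure D4:**
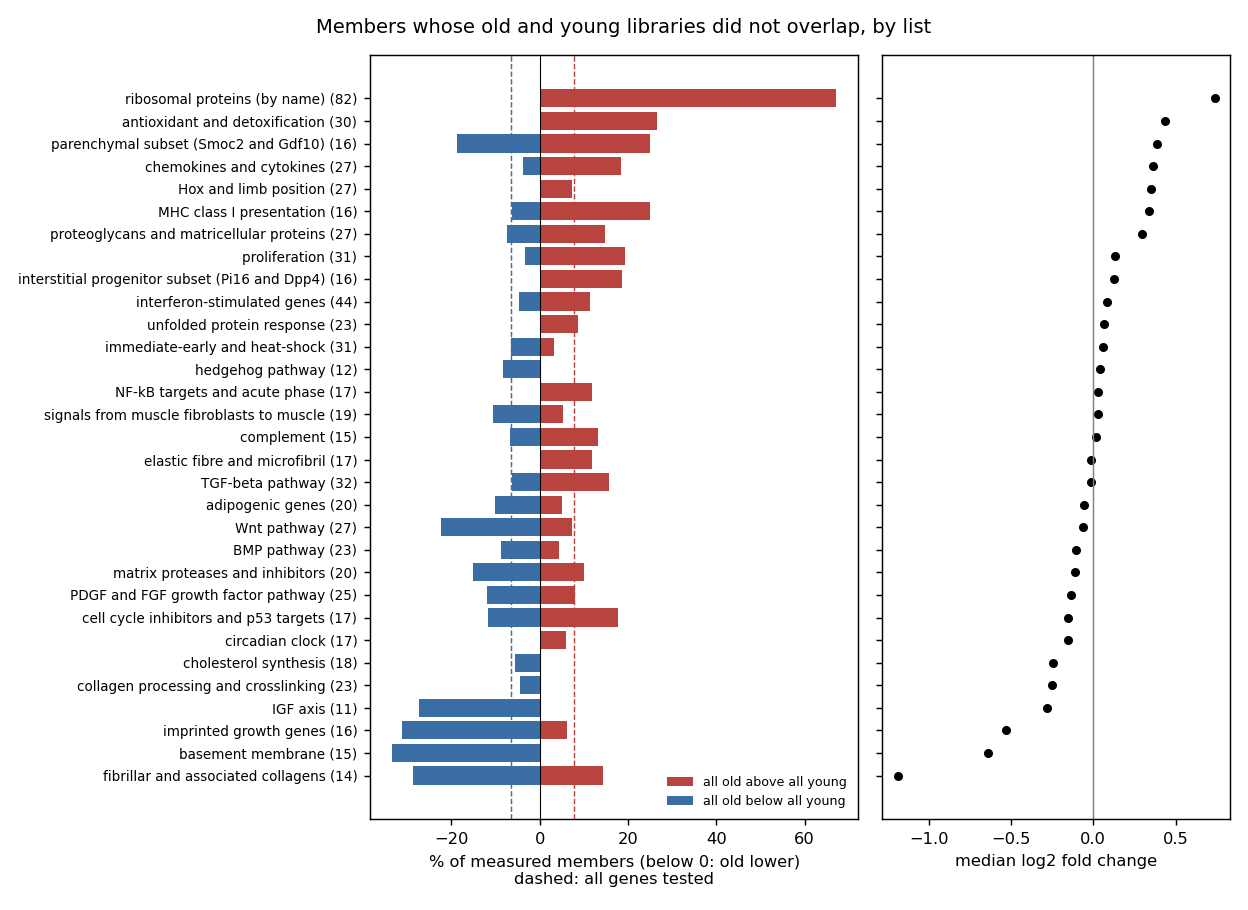
For each list with 10 or more measured members (number in parentheses), bars give the percentage of members with all old libraries above (right of 0) or below (left of 0) all young ones, dashed lines the same for all genes tested (7.7% and 6.52%), and points the median log2 fold change. Ribosomal protein genes reach the highest median, 0.74, and the collagens the lowest, -1.19.

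Of 16 imprinted growth genes 13 had a negative log2 fold change, with a median of -0.53, 5 below, 1 above, 0 passing, 7 at an unadjusted p under 0.05 and 1 called by DESeq2. The maternally expressed noncoding RNAs Meg3, Rian and Mirg are neighbours in one cluster on chromosome 12. Rian stood at 452, 346 and 364 CPM in young and 166, 175 and 196 in old libraries (log2 fold change -1.11 ± 0.28) and Meg3 at 598, 339 and 411 against 226, 209 and 243. Peg3, a paternally expressed zinc finger gene, stood at 261, 168 and 174 against 119.9, 74.2 and 100.5. Cdkn1c, a cell cycle inhibitor, was the member above, at 125, 124 and 120.2 against 147, 135 and 174. The median without young replicate 1 and old replicate 2 was -0.36.

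Antioxidant and detoxification genes had a median of 0.44, with 8 of 30 above, 0 below, 0 passing and 8 at an unadjusted p under 0.05, while DESeq2 called 0. The median was 0.155 without old replicate 2 and 0.269 without it and young replicate 1. Mt1, a metallothionein, stood at 1736, 1668 and 1488 CPM in young and 1995, 4429 and 2219 in old libraries, Gpx8, a peroxidase of the endoplasmic reticulum, at 139, 172 and 138 against 176, 346 and 221, and Gstm1, a glutathione transferase, at 464, 931 and 807 against 1110.1, 1288 and 1008. Old replicate 2 was the highest in each of the 3 genes. Ribosomal protein genes, a set taken by name after the values were seen, had 55 of 82 above and 0 below, a median of 0.74, 0 passing and 46 at an unadjusted p under 0.05. They took 1.02% to 1.32% of counts in young and 1.52% to 2.21% in old muscle fibroblast libraries. In satellite cells the share was 2.58% to 3.36% in young and 2.89% to 3.72% in old libraries, and in lymph node fibroblasts 4.10% to 4.37% and 4.10% to 4.66%. In thymic fibroblasts it was 3.16% to 4.95% and 4.57% to 5.84%. Whether the difference between ages itself differs between cell types was not tested. The median of the ribosomal set was 0.39 without old replicate 2 and 0.32 without young replicate 1 and old replicate 2.

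Transcript length moved with these lists. Genes tested were split in 3 equal parts by the length of their longest GENCODE M21 transcript, which 11912 of them had. In the part with the shortest transcripts (median 1668 bases) 14.6% of genes lay above and 3.02% below, with a median log2 fold change of 0.28. In the part with the longest (median 5782 bases) 3.10% lay above and 9.22% below, with a median of -0.12. Of the 82 ribosomal protein genes 72 were in the shortest part, of the 30 antioxidant genes 19, and of the 14 collagen and 15 basement membrane genes 13 and 15 in the longest part. In satellite cells, fitted together with muscle fibroblasts, the medians of the shortest and longest parts were 0.043 and -0.039, in lymph node fibroblasts -0.033 and 0.013 and in thymic fibroblasts 0.061 and -0.078. In muscle fibroblasts without young replicate 1 and old replicate 2 they were 0.089 and -0.060. The part of length in the list values was not tested.

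The remaining lists had 0 members passing by edgeR or DESeq2. Of 31 proliferation genes 6 lay above and 1 below (median 0.13), of 17 cell cycle inhibitors and p53 targets 3 above and 2 below (-0.15), of 31 immediate-early and heat-shock genes, which respond to cell isolation, 1 above and 2 below (0.059), and of 27 Hox genes and limb position factors 2 above and 0 below (0.35). Of 17 clock genes 1 lay above and 0 below (-0.15), of 23 unfolded protein response genes 2 and 0 (0.065), and of 18 cholesterol synthesis genes 0 and 1 (-0.25). A single class II presentation gene was measured. Globin and other erythroid markers summed to 154 to 717 CPM in young and 432 to 726 in old libraries.

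The age difference of muscle fibroblasts was then set against that of satellite cells from the same tissue by an interaction term. Of 13690 genes 2 passed (0.0146%), both with a higher difference in muscle fibroblasts. For Arhgef4 the log2 difference of the fold changes was 6.95 ± 1.05 (adjusted p = 0.0113), and satellite cells stood at 2.81, 4.25 and 21.1 CPM of the library total in young and 0.396, 2.00 and 5.39 in old libraries. For Sox11, a transcription factor of progenitors, it was 3.33 ± 0.39 (adjusted p = 0.000407). That came from a fall in satellite cells, from 340.3 ± 79.2 CPM (SD) to 22.3 ± 1.59 (log2 fold change -3.93 ± 0.29, adjusted p = 2e-07), where 0.519% of genes passed, while muscle fibroblasts stood at 87.1, 55.3 and 68.6 in young and 36.2, 50.7 and 54.7 in old libraries. Leaving out muscle fibroblast young replicate 2 or old replicate 2, or satellite young replicate 3 or old replicate 2, ended the call of Arhgef4 (adjusted p 0.0535 to 0.118).

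Against lymph node fibroblasts 2 of 14075 genes passed (0.0142%). Cyp2f2 had a log2 difference of -3.37 ± 0.40 (adjusted p = 0.000943). Its log2 fold change was -2.21 in muscle fibroblasts and 1.16 ± 0.26 in lymph node fibroblasts, where it did not pass (adjusted p = 0.11). Its level in lymph node fibroblasts was 173, 226 and 216 CPM of the library total in young and 365, 504 and 588 in old libraries. Col8a1 had 3.13 ± 0.48 (adjusted p = 0.0243) and fell in lymph node fibroblasts from 3488 ± 698 CPM (SD, n = 3) to 810.3 ± 266 (adjusted p = 0.00959), where 0.163% of genes passed. Its call ended without muscle fibroblast young replicate 1, young replicate 2 or old replicate 1, or lymph node young replicate 3 or old replicate 2 (adjusted p 0.0506 to 0.122). Arhgef4 varied within the lymph node groups, at 32.0, 2.65 and 2.48 in young and 4.46, 3.78 and 44.4 in old libraries.

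Against thymic fibroblasts 22 of 14074 genes passed (0.156%), 6 with a higher and 16 with a lower difference in muscle fibroblasts. Among the highest were Arhgef4 (5.24 ± 1.05, adjusted p = 0.0437), Laptm5, Adamts8, Thbs4 (2.85 ± 0.52, adjusted p = 0.027) and Aspn (2.24 ± 0.37, adjusted p = 0.0134). Aspn stood at 228 ± 17.6 CPM (SD, n = 4) in young and 119.8 ± 8.74 in old thymic fibroblasts, while its levels in muscle fibroblasts, given above, were higher in the old libraries than in the young. Laptm5, a lysosomal protein of blood cells, and Adamts8 stood at 3.78 and 7.56 CPM or less in every muscle fibroblast library. Among the lowest were Hba-a2, Art4, Cyp2f2 (-3.09 ± 0.45, adjusted p = 0.00781), Abcc9 (-2.94 ± 0.53, adjusted p = 0.0219) and Ddit4l. Abcc9, a potassium channel subunit that mural cells also carry, stood at 33.2, 14.5 and 10.3 CPM in young and 4.32, 1.36 and 2.88 in old muscle fibroblasts. Hba-a2 is a haemoglobin gene with a near-identical copy, so its counts are uncertain. Gdf10 and, picked after its values were seen, Itga8 also passed, with -2.44 ± 0.43 and -2.38 ± 0.39.

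The 3 comparisons share the 6 muscle fibroblast libraries and are not independent. Leaving out single libraries gave 1 to 3 genes called against satellite cells, 1 to 5 against lymph node fibroblasts and 7 to 21 against thymic fibroblasts. Of the 14 thymic fits, Art4 and Hba-a2 lost the call in 12, Laptm5 in 11, Arhgef4 and Ddit4l in 10, Thbs4 in 6, Adamts8 and Gdf10 in 3 and Abcc9 in 2. The adjusted p of Arhgef4 reached 0.467, without thymic young replicate 1. Cyp2f2, Itga8 and Aspn were past the threshold in all 14.

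Some genes had a like difference in another cell type, and no test of the difference passed for them. In satellite cells Col1a1 and Col1a2 also fell, with log2 fold changes of -4.21 ± 0.76 and -3.12 ± 0.64 (edgeR, adjusted p = 0.0112 and 0.027). Young satellite libraries were uneven for both genes, at 13737 ± 18203 CPM (SD) for Col1a1 and 3340 ± 4028 for Col1a2. The SD was above the mean in each, so a fall shared by the satellite libraries is not shown. Col3a1 had -1.28 there (adjusted p = 0.303), while Col5a3 had the opposite sign (0.186, adjusted p = 0.951). Nrep lay lower in old libraries without overlap in all 4 cell types. It stood at 297, 143 and 227 CPM of the library total in young and 74.0, 123 and 82.8 in old satellite cells. In lymph node fibroblasts it stood at 439.5, 372 and 470.3 against 130.2, 125 and 107 and fell (adjusted p = 0.00959), and in thymic fibroblasts at 94.2, 65.8, 73.3 and 95.2 against 35.6, 31.5, 39.2 and 20.6, also a fall (adjusted p = 0.0235, where 0.831% of genes passed). Kng2 rose in satellite cells, from 3.86, 0.472 and 1.35 to 28.1, 24.7 and 37.0 (adjusted p = 0.00321), and was at 3.13 or less in every lymph node and thymic fibroblast library. Gm6493 overlaps Kng2 on the same strand. In muscle fibroblasts the 10 satellite cell markers summed to 195 to 270.2 CPM in young and 281 to 371 in old libraries, and their part in the level of Kng2 was not tested.

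**Figure D5:**
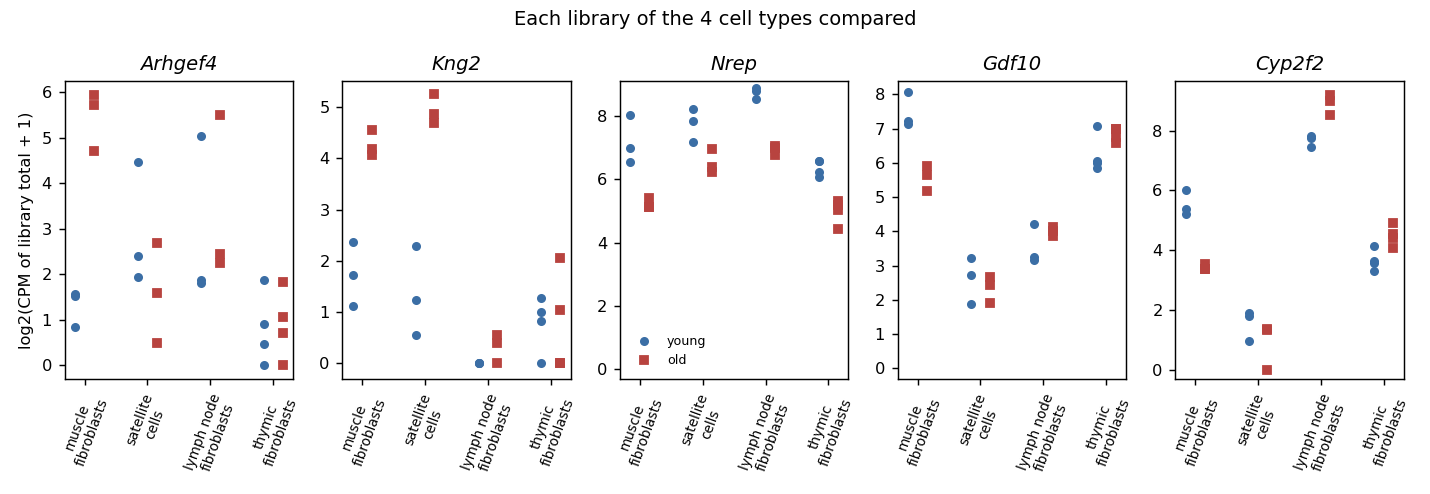
Each point is 1 library, as log2 of the CPM of the library total plus 1, for 5 genes in 4 cell types, with young libraries as circles and old ones as squares. Old libraries lie below young ones for Nrep in all 4 cell types, and above for Kng2 in both cell types from muscle.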

How the data were processed

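Sorted cells gave 3'-end libraries of poly(A) RNA. Per the labels' protocols each molecule carried an identifier of 10 bp beside the library's index of 8 bp, and reads were assigned to libraries with sabre 80faf94. The sources used here do not state if copies were removed by identifier. STAR and featureCounts 2.0.1 are named in the submitters' processing notes, as are the GRCm38.p6 and mm10 builds. The authors deposited raw whole-number counts for 55484 genes in 170 libraries.

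Groups follow the sample titles. Old and young were compared with edgeR 4.0.16 in R 4.3.3 (glmQLFit, glmQLFTest, TMM) on the 6 libraries. The filter was filterByExpr, set to 10 counts and a total of at least 15. Interactions of cell type and age were fitted with each other cell type. Adjusted p is Benjamini-Hochberg over all genes tested, with a threshold of 0.05. Named genes were to pass it at a mean of at least 20 CPM in either age, the ages not overlapping, which Arhgef4 alone met, and Pdgfra, Dcn, Ccn4, Gdf10, Igf1, Fst, Il33, Smoc2, Il6, Lif and Hgf were named whatever their values. From each interaction up to 5 genes per direction past the threshold with 20 CPM or more in the highest group were named. The scripts were tested on simulated data. Alternatives were RLE size factors, no filter, DESeq2 1.42.0, a replicate block, a spread shared with satellite cells and leaving out each library, and, chosen after seeing the data, bias-adjusted deviances (edgeR), young replicate 1 and old replicate 2 left out together, and counts without overlap scaled by RLE or library totals only. Members and lists were chosen with earlier results of these data known. Overlapping genes and near-identical copies can share reads.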

Additional observations from a re-analysis of the deposited data

Results flagged for a closer look

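Some genes had an age difference that itself differed between muscle fibroblasts and another cell type by the interaction test (edgeR, adjusted p under 0.05), each given here as the log2 fold change of muscle fibroblasts minus that of the other type. Against satellite cells these were Arhgef4 (6.95 ± 1.05) and Sox11 (3.33 ± 0.39). Against lymph node fibroblasts they were Cyp2f2 (-3.37 ± 0.40) and Col8a1 (3.13 ± 0.48). Against thymic fibroblasts 6 genes were higher in muscle fibroblasts and 16 lower, and not all are listed here. Those higher included Arhgef4 (5.24 ± 1.05), Laptm5 (4.41 ± 0.88), Adamts8 (3.96 ± 0.71), Thbs4 (2.85 ± 0.52) and Aspn (2.24 ± 0.37). Those lower included Hba-a2 (-4.46 ± 0.93), Art4 (-3.48 ± 0.72), Cyp2f2 (-3.09 ± 0.45), Abcc9 (-2.94 ± 0.53), Ddit4l (-2.74 ± 0.53), Gdf10 (-2.44 ± 0.43) and Itga8 (-2.38 ± 0.39). Calls of the genes above held with any 1 library left out for Sox11, for Cyp2f2 in both comparisons and for Aspn and Itga8. Arhgef4 lost its call in 4 of 12 such fits against satellite cells and 10 of 14 against thymic fibroblasts, and Col8a1 in 5 of 12. The other thymic calls above were lost for Art4 and Hba-a2 in 12 of 14, Laptm5 in 11, Ddit4l in 10, Thbs4 in 6, Adamts8 and Gdf10 in 3 and Abcc9 in 2. Thymic calls not followed in these fits included Iigp1 (-2.03 ± 0.32), Gbp2 (-1.76 ± 0.37) and Igtp (-1.52 ± 0.31), of the interferon-stimulated list. Their log2 fold changes were 1.625, 1.12 and 1.52 in thymic fibroblasts and -0.41, -0.64 and 0.002 in muscle fibroblasts.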

How the results depend on the processing

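With all genes kept, 45 genes were called higher and 72 lower in old muscle fibroblasts, with DESeq2 18 and 36, and with the spread shared with satellite cells, or with bias-adjusted deviances, 3 and 3. RLE size factors, and leaving out young replicate 1 and old replicate 2 together, gave 1 and 0. Leaving out 1 library gave 1 to 12 called higher and 0 to 1 lower. Arhgef4 was called in each of the 13 alternatives. The correlations of same-numbered deviations were 0.006, 0.136 and 0.006, and such values cannot decide whether replicate numbers pair the samples. With the replicate block 9 genes were called higher and 17 lower, 4 of the lower ones from the collagen list. The calls against satellite cells, lymph node fibroblasts and thymic fibroblasts were 119, 88 and 138 with all genes kept, and 2, 1 and 14 with the replicate block within cell type. Leaving out 1 library gave 1 to 3, 1 to 5 and 7 to 21. The cause of these differences was not tested.

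Of 1390 values for 107 genes followed by name under 13 alternatives, 1376 kept their sign. Genes whose sign reversed on leaving out 1 library were Ccn4 (-0.56 to 0.20), Igf1 (-0.575 to 0.062), Smoc2 (-0.53 to 0.072), Lif (-0.61 to 0.56), Col14a1 (-0.58 to 0.088) and Hba-a2 (-0.14 to 1.45). The libraries were young replicate 1 for Ccn4, Igf1, Lif, Col14a1 and Hba-a2 and old replicate 2 for Smoc2 and Hba-a2, and young replicate 3 for Hba-a2. Without both young replicate 1 and old replicate 2 the log2 fold change was 0.24 for Ccn4, 0.056 for Smoc2, 0.66 for Lif, 0.14 for Col16a1 and -0.44 for Hba-a2, and with the replicate block it was 0.014 for Lif. The median log2 fold change of all genes was 0.009 with TMM and -0.052 with library totals only. Totals of 1816124 to 5037385 counts limit genes of few counts, such as Arhgef4 with 4 to 5 counts in each young library.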
